A study of Mus musculus with 6 samples.

Results

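The genes of voltage-gated and potassium-selective ion channels were followed in whole testes of mice with and without Amh-Cre on a floxed Ptbp1 background. Members were chosen by symbol alone: the families named Kcn followed by letters and a number, Scn, Cacna, Cacnb and Cacng, and the single genes Hvcn1 and Lrrc52, which gave 134 of the 55331 genes in the authors' deposited table. The groups held 3 libraries each. The Ptbp1_cKO testes carried the genotype Ptbp1fl/fl; Amh-Cre+/-, and the control testes Ptbp1fl/fl without Cre, so both groups shared the floxed alleles, a mixed strain background and an age of 35 days. Amh-Cre acts in Sertoli cells, the somatic cells that enclose the germ cells, and no group had Amh-Cre without the floxed alleles, so the deletion and the transgene cannot be told apart. The study asked what the splicing regulator PTBP1 does in Sertoli cells. The table gives 1 FPKM value per group, a read count scaled to library size and transcript length, and no value per library. Each FPKM below is thus a value of the authors for a whole group, with no SD, and the labels do not say whether the libraries came from separate animals.

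Voltage-gated channels open when the membrane potential changes. Those for sodium and calcium let cations in and depolarise the cell, and potassium channels let potassium out and restore or hold the resting potential. Their pore subunits are often joined by auxiliary subunits that set gating and traffic to the surface. In sperm, the potassium channel SLO3, encoded by Kcnu1 with its auxiliary subunit Lrrc52, opens on alkalinisation and hyperpolarises the cell, which is needed for fertility in mice. PTBP1 is known to act on channel transcripts mainly through exon choice, as in Cacna1c, and a gene-level FPKM does not show exon use.

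No channel gene passed the threshold of Cuffdiff's test in the authors' deposited table, a q-value under 0.05 over all tested genes. Of the 134 members, 87 were tested, with 0 higher and 0 lower in Ptbp1_cKO. The background was 1.16% of the 22048 tested genes, 0.458% as higher and 0.703% as lower. At an unadjusted p under 0.05 the deposited test picked 7 members, or 8.05% of those tested, against a background of 8.98%. Of these, 5 were higher and 2 lower in Ptbp1_cKO, where 4.38% of all tested genes had such a p as higher and 4.59% as lower. These shares lie near the background, so they are no result about the channels. The summed FPKM over all 134 members was 445.0 in Ptbp1_cKO and 446.1 in control. Expressed as log2(FPKM + 1) in Ptbp1_cKO less the same in control, the median difference was 0.02 over the 97 members with at least 0.1 FPKM in a group and 0.0045 over the 23462 genes with that level.

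**Figure D1:**
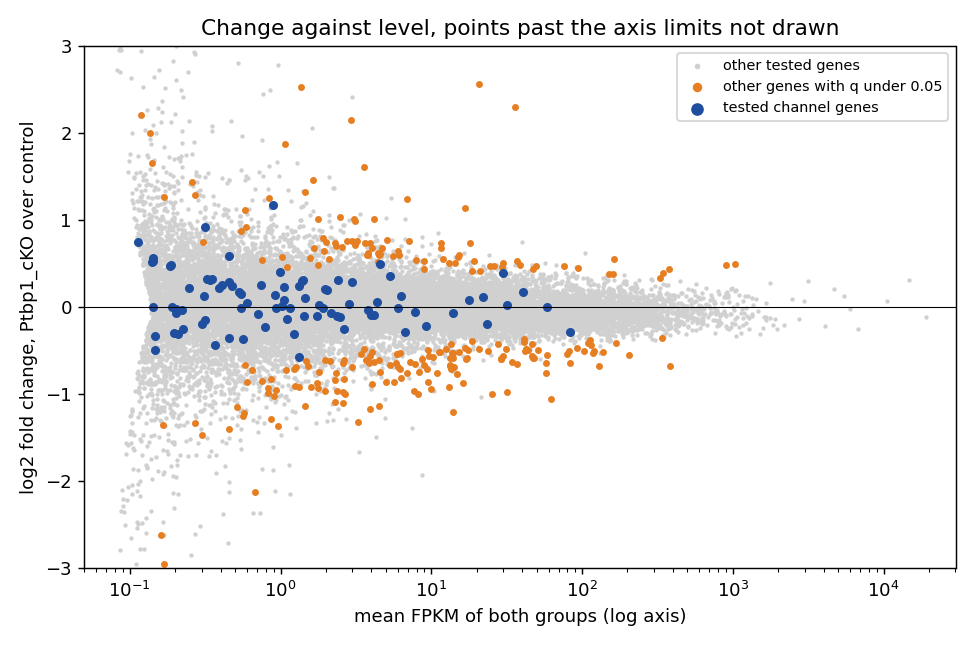
Log2 fold change of Ptbp1_cKO over control (vertical axis) against the mean FPKM of both groups (horizontal log axis) in the authors' deposited table, for other tested genes (grey), other genes with q under 0.05 (orange) and the 87 tested channel genes (blue). The channel genes lie within the grey cloud, between -0.57 and 1.18.

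The size of change that the deposited test called at each level puts these counts in context. Among all genes with a mean of at least 10 FPKM, the smallest absolute log2 fold change that passed was 0.33 and the median of those that passed was 0.52 in the authors' deposited table. The 9 channel genes at that level reached at most 0.39, in Cacnb1. Between 1 and 10 FPKM the smallest change called was 0.44 with a median of 0.72, and the largest of the 35 channel genes was 0.57, in Cacnb4. Between 0.1 and 1 FPKM the smallest was 0.55 with a median of 1.26, and the 43 tested channel genes reached 1.18, in Cacna1b. The typical size of change lay near that of all genes at the same level. The median absolute log2 fold change was 0.12 for channels and 0.11 for all genes at 10 FPKM or more. In the same order it was 0.11 and 0.14 between 1 and 10 FPKM, and 0.26 and 0.28 between 0.1 and 1 FPKM. An error for each change can be read from the table if its statistic is the log fold change divided by its standard error, as Cuffdiff defines it. With that implied standard error, the 95% interval of the log2 fold change included 0 for all 87 tested members. This restates that the normal p of each, described below, was not under 0.05, and is no separate result. The deposited p was under 0.05 for 7 of the 87. For 38 of the 87 the interval lay wholly between -1 and 1. For the other 49 it reached past at least one of these bounds, so that a change of that size in that direction lay within the interval. The normal p ran high over the whole table, so these intervals may be too wide, and the counts of 38 and 49 depend on them.

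Of the 7 members with an unadjusted p under 0.05, 6 are described here, and none had q under 0.05 in the authors' deposited table. Cacna1b (chromosome 2, 24603887 to 24763152, mm10, minus strand), the pore of the N-type calcium channel of nerve endings, stood at 1.25 FPKM in Ptbp1_cKO and 0.550 FPKM in control, which is the largest absolute change among tested members (log2 fold change 1.18, implied standard error 0.81, p = 0.00965, q = 0.259 in the authors' deposited table). If all its fragments came from the longest annotated transcript, these levels rested on about 2403 fragments in Ptbp1_cKO and 1178 in control, summed over 3 libraries.

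Kcne3 (chromosome 7, 100176502 to 100184869, plus strand), an auxiliary subunit of voltage-gated potassium channels and the most abundant member, was lower in Ptbp1_cKO, at 75.2 FPKM against 91.4 FPKM in control. Its log2 fold change was -0.28 with an implied standard error of 0.20, p = 0.00955 and q = 0.257 in the authors' deposited table. Kcnj6, the GIRK2 subunit of the potassium channels opened by G proteins, was the other lower member, at 6.01 FPKM in Ptbp1_cKO and 7.32 FPKM in control (p = 0.0393, q = 0.498 in the authors' deposited table). Both lower members belonged to the more abundant channels, with changes under 0.3 on the log2 scale.

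The other 3 members were higher in Ptbp1_cKO. Kcnh2, the pore of the hERG potassium channel, stood at 5.96 FPKM in Ptbp1_cKO and 4.64 FPKM in control (p = 0.0298, q = 0.443 in the authors' deposited table). Kcnn2, a small-conductance potassium channel opened by calcium, stood at 0.544 FPKM in Ptbp1_cKO and 0.361 FPKM in control (p = 0.0353, q = 0.474 in the authors' deposited table). Kcnk3, the TASK-1 leak channel closed by extracellular acid, stood at 1.13 FPKM in Ptbp1_cKO and 0.853 FPKM in control (p = 0.0429, q = 0.521 in the authors' deposited table). For all 6 the deposited p was smaller than the p that the deposited statistic gives under a normal distribution. By that p, 0 of the 87 members were under 0.05, against 1.34% of the 22020 tested genes with a statistic. That share lies under the 0.05 that a normal statistic would give with no change in any gene. The normal p thus ran high over the whole table, and the 0 of 87 is no result about the channels.

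**Figure D2:**
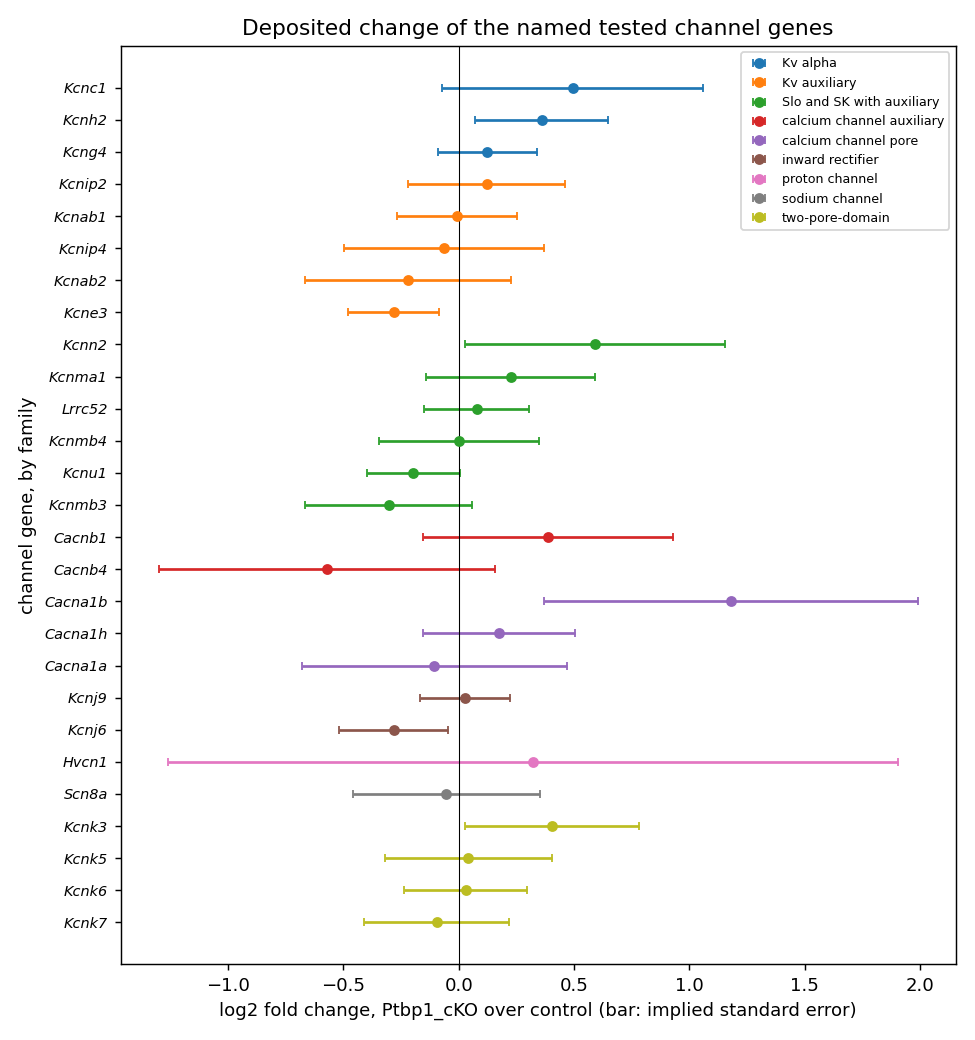
Log2 fold change of Ptbp1_cKO over control in the authors' deposited table (horizontal axis) for 27 named tested channel genes, coloured and ordered by family; bars are the standard error implied by the deposited statistic. The point farthest from 0 is Cacna1b at 1.18, with a bar of 0.81 on each side.

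By family, Cuffdiff's test called 0 members in each direction in every family. For the direction counts below, 50.9% of all tested genes had a higher FPKM in Ptbp1_cKO, and no family was tested against that share. The 40 pore subunits of voltage-gated potassium channels (Kv alpha, with Kcnq and the hERG-like Kcnh) had 21 tested, 13 of them with a higher FPKM in Ptbp1_cKO, and a median log2(FPKM + 1) difference of 0.04. Kcng4, a modifier subunit that is silent alone and alters other Kv channels, was the most abundant of them at 6.58 FPKM in Ptbp1_cKO and 6.04 FPKM in control. The Shaw-type pore Kcnc1 had the family's largest positive change above 1 FPKM, at 5.37 FPKM in Ptbp1_cKO and 3.81 FPKM in control (log2 fold change 0.49, implied standard error 0.57, q = 0.764 in the authors' deposited table). The 11 auxiliary subunits of Kv channels leaned the other way, with 7 of 10 tested lower in Ptbp1_cKO and a median of -0.06. Besides Kcne3 these include the beta subunits Kcnab2, at 8.47 FPKM in Ptbp1_cKO and 9.87 FPKM in control, and Kcnab1, at 5.99 and 6.03 FPKM in the same order. Neither lean was tested as a group difference.

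The 13 genes of the Slo and small-conductance calcium-activated potassium channels, auxiliary subunits included, had 10 tested, 6 of them with a higher FPKM in Ptbp1_cKO, and a median of 0.03. Kcnu1 (chromosome 8, 25849623 to 25937939, plus strand), the pore of SLO3, stood at a log2 fold change of -0.20 with an implied standard error of 0.20 (p = 0.0717, q = 0.638 in the authors' deposited table). Its partner Lrrc52 stood at 0.08 with an implied standard error of 0.23, in the authors' deposited table. The intervals of both lay within -1 and 1. The 14 two-pore-domain channels, which carry the background potassium leak, had 10 tested, 7 of them with a higher FPKM in Ptbp1_cKO, and a median of 0.05. Kcnk7 led them at 3.87 FPKM in Ptbp1_cKO and 4.14 FPKM in control. Kcnk5, the alkali-activated TASK-2, stood at 2.87 FPKM in Ptbp1_cKO and 2.79 FPKM in control, and the related Kcnk6 at 1.81 FPKM in Ptbp1_cKO and 1.77 FPKM in control. Of the 15 inward rectifiers 5 were tested, the lowest share of any family, and their median was 0.03 over 7 members. Kcnj11, the pore of the ATP-sensitive potassium channel, was among those not tested, at 0.103 FPKM in Ptbp1_cKO and 0.0513 FPKM in control.

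Of 14 sodium channel genes 10 were tested, 8 of them with a lower FPKM in Ptbp1_cKO, and the median was -0.0047. Scn8a, the pore Nav1.6, was the only one above 1 FPKM, at 7.68 FPKM in Ptbp1_cKO and 7.97 FPKM in control. The 10 calcium channel pores had 9 tested, 6 of them with a higher FPKM in Ptbp1_cKO, and a median of 0.05, with the P/Q-type Cacna1a at 2.28 FPKM in Ptbp1_cKO and 2.45 FPKM in control. Their 16 auxiliary subunits had 11 tested, 7 of them with a higher FPKM in Ptbp1_cKO, and a median of 0.04. Whether sodium and calcium channels differ in direction was not tested. Cacnb1, the beta subunit that brings calcium channels to the membrane, was the most abundant of these, at 33.9 FPKM in Ptbp1_cKO and 25.9 FPKM in control (log2 fold change 0.39, implied standard error 0.54, q = 0.866 in the authors' deposited table). Its relative Cacnb4 had the largest negative change of the 87, at 1.06 FPKM in Ptbp1_cKO and 1.58 FPKM in control (log2 fold change -0.57, implied standard error 0.73, q = 0.875 in the authors' deposited table). The voltage-gated proton channel Hvcn1, which serves proton exit in human sperm, was low, at 0.364 FPKM in Ptbp1_cKO and 0.291 FPKM in control, with an implied standard error of 1.58 on the log2 scale. Hvcn1 shares 1574 exonic bases, 44.2% of its own, with Tctn1 on the opposite strand, at 9.69 FPKM in Ptbp1_cKO and 9.21 FPKM in control. The level of Hvcn1 is thus uncertain if counting ignored strand.

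The levels themselves, which FPKM allows to be compared between genes, were unevenly spread. By the mean of both groups, 40 members lay under 0.1 FPKM, 50 between 0.1 and 1, 35 between 1 and 10, and 9 at 10 or more. These 9 genes held 71.9% of the members' summed FPKM in Ptbp1_cKO and 72.6% in control. After Kcne3 came Kcnmb4 at 58.7 FPKM in both groups, Cacna1h at 43.1 FPKM in Ptbp1_cKO and 38.2 FPKM in control, Kcnj9 at 32.2 and 31.6 FPKM in the same order, and Cacnb1. The remaining 4 were Kcnu1 at 21.9 FPKM in Ptbp1_cKO and 25.1 FPKM in control, Kcnip2 at 23.0 and 21.1 FPKM in the same order, Lrrc52 at 18.2 and 17.3 FPKM, and Kcnip4 at 13.6 and 14.3 FPKM. Of these 9, 6 encode auxiliary subunits and not pores. Among all 134 members, 11 were auxiliary subunits of Kv channels and 16 of calcium channels, with others counted within the Slo and sodium families. Whether the 6 of 9 exceed that share was not tested. The table holds no spread between libraries, so which neighbours in this order differ beyond it is not known. Kcnk15 was listed at 0 in Ptbp1_cKO only, and Kcnj5, Kcnk16 and Kcnv1 in control only. None of these 4 was tested. By the longest transcript, the value of the other group rested on about 3, 2, 5 and 7 fragments in that order, summed over 3 libraries.

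**Figure D3:**
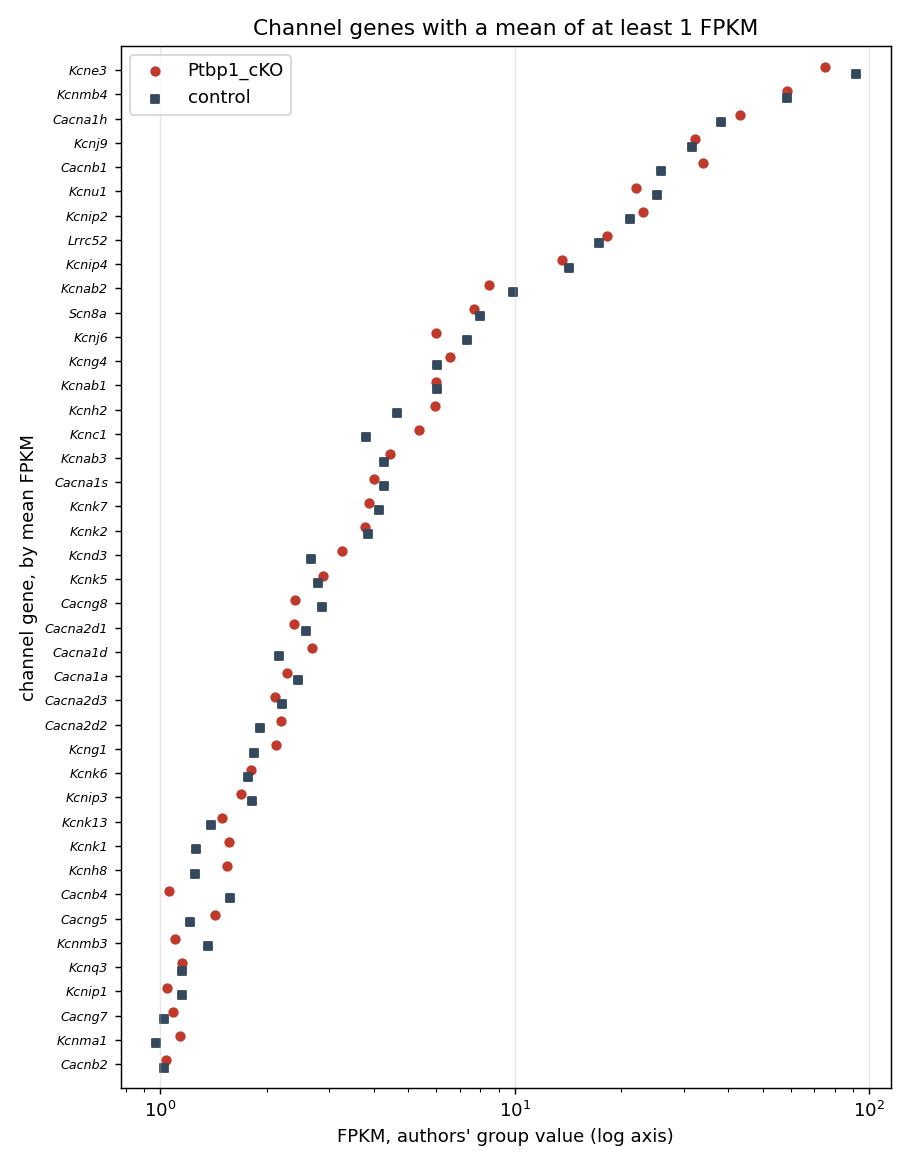
FPKM in Ptbp1_cKO (red circles) and control (dark squares) on a log axis for 42 channel genes with a mean of at least 1 FPKM, ordered by that mean; each point is the authors' group value. Both groups give a similar order, with Kcne3 on top at 75.2 FPKM in Ptbp1_cKO and 91.4 FPKM in control.

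Several abundant members are known elsewhere as partners of channel subunits that were scarce here. Only the pairs named below were compared, so a scarce partner does not mean that a subunit had no abundant one. Kcnmb4, the beta-4 subunit of the large-conductance BK channel, had 51.7 times the FPKM of the BK pore gene Kcnma1 in Ptbp1_cKO and 60.4 times in control, with Kcnma1 at 1.14 FPKM in Ptbp1_cKO and 0.972 FPKM in control. Kcnmb4 shares exon bases with genes on the opposite strand, as given below, so its level and these ratios are uncertain if counting ignored strand. The remaining beta subunit above 1 FPKM, Kcnmb3, stood at 1.10 FPKM in Ptbp1_cKO and 1.36 FPKM in control. Kcne3 had 193.5 times the FPKM of Kcnq1, a pore that it opens in gut epithelium, in Ptbp1_cKO and 294.5 times in control. Kcnj9 and Kcnj6 encode GIRK3 and GIRK2, and Kcnj6 itself was not scarce, at 6.01 FPKM in Ptbp1_cKO and 7.32 FPKM in control. The GIRK1 gene Kcnj3, in contrast, stood at 0.0068 FPKM in Ptbp1_cKO and 0.0075 FPKM in control. The GIRK4 gene Kcnj5 was at 0.0018 FPKM in Ptbp1_cKO and listed at 0 in control. Kcnip2, a calcium-binding subunit of Kv4 channels, exceeded the most abundant Kv4 pore Kcnd3 7.07-fold in Ptbp1_cKO and 7.92-fold in control. By contrast Lrrc52 and its pore Kcnu1 were close, with Lrrc52 at 0.832 times Kcnu1 in Ptbp1_cKO and 0.688 times in control, and Kcnu1 exceeded its Slo relative Kcnma1 19.3-fold in Ptbp1_cKO and 25.9-fold in control. Within the T-type calcium channels Cacna1h, the pore Cav3.2, was by far the most abundant at the levels given above. Its relative Cacna1i stood at 0.498 FPKM in Ptbp1_cKO and 0.409 FPKM in control, and Cacna1g at 0.445 FPKM in Ptbp1_cKO and 0.373 FPKM in control. Whether these subunits lie in the same cells was not tested, since the RNA came from whole testis, where fewer cells of a type and less RNA per cell cannot be told apart.

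**Figure D4:**
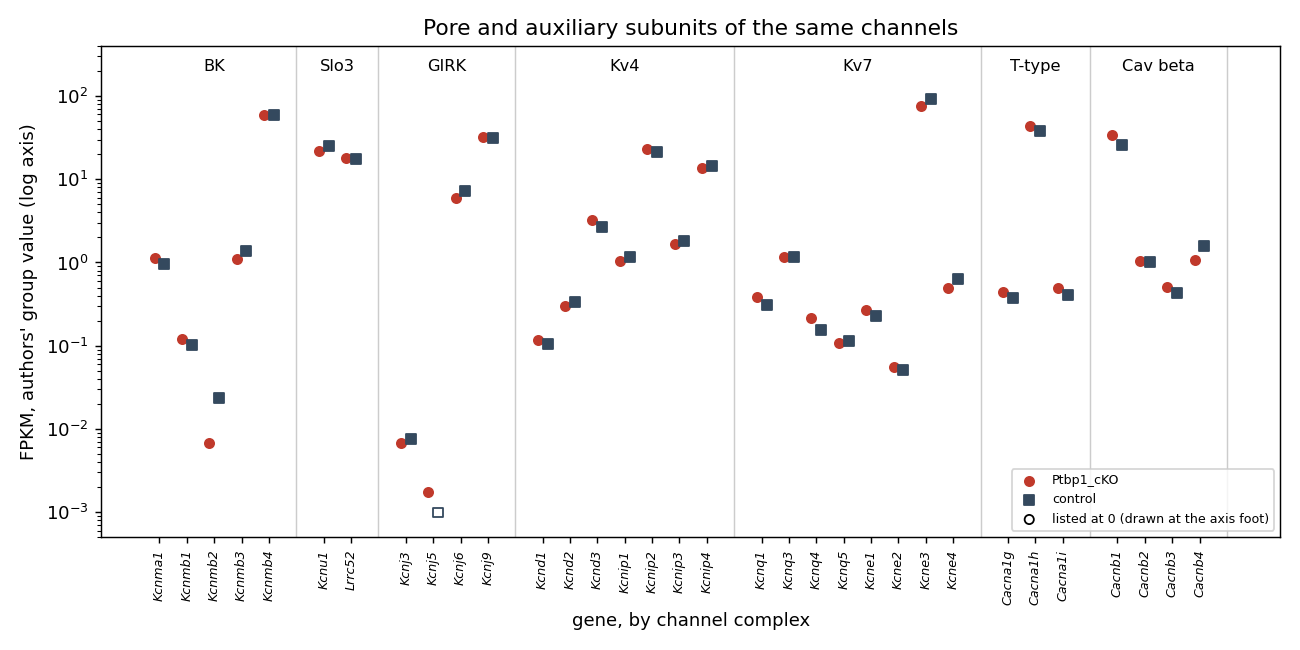
FPKM on a log axis (vertical) of pore and auxiliary subunits grouped by the channel they form, with Ptbp1_cKO as red circles and control as dark squares; an open marker is a gene listed at 0, drawn at the foot. Kcnmb4 stands above Kcnma1, Kcne3 above Kcnq1, Kcnj9 above Kcnj3 and Kcnip2 above Kcnd3 in both groups, and Kcnu1 and Lrrc52 stand close together.

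Promoter sequences are shown for the pairs Kcnmb4 and Kcnma1, and Kcnj9 and Kcnj3, because an abundant and a scarce subunit meet in them, and for the sperm subunit Lrrc52. They come from RefSeq on build GRCm38.p6 and run from 250 bases before to 50 bases after an annotated start, 5′ to 3′ on the gene's strand, with CG dinucleotides in capitals.
Kcnmb4, chr10:116473474-116473773, minus strand: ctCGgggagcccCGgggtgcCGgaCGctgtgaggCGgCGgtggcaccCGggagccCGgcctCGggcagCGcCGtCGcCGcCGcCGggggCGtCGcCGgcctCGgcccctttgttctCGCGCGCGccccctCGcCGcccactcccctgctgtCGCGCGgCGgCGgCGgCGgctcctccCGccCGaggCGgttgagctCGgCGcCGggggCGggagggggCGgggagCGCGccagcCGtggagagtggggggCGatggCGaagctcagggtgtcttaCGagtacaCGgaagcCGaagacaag
Kcnma1, chr14:24004156-24004455, minus strand: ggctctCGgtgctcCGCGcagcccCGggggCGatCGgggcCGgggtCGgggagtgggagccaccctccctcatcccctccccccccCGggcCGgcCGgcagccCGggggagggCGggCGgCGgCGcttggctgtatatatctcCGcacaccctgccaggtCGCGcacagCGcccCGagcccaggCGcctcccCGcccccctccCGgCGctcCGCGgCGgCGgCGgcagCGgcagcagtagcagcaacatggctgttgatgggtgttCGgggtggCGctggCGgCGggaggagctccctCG
Kcnj9, chr1:172329273-172329572, minus strand: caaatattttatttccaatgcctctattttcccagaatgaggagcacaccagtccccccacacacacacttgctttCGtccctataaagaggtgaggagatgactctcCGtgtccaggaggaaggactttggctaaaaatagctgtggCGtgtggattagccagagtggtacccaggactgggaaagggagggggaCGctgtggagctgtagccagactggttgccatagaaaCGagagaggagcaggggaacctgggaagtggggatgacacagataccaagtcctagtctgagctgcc
Kcnj3, chr2:55435720-55436019, plus strand: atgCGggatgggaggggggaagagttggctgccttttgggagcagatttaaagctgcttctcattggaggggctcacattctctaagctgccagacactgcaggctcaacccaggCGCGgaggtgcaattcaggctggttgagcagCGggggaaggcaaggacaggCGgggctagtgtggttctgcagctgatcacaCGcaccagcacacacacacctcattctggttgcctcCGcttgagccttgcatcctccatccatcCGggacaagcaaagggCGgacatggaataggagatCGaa
Lrrc52, chr1:167466731-167467030, minus strand: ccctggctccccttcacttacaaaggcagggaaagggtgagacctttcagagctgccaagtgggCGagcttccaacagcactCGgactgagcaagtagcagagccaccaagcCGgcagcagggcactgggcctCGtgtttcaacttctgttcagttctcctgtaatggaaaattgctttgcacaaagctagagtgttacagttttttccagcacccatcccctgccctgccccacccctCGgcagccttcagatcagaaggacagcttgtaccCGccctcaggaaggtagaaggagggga

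The abundant Kcnmb4 and the scarce Kcnma1 both had CG-dense windows, with 48 and 36 CG dinucleotides. The abundant Kcnj9 and Lrrc52 had 5 and 6, fewer than the 10 of the scarce Kcnj3. Level and CG density therefore did not run together in these 5 windows. RefSeq windows were found for 98 of the 134 members, 134 windows in all, with a median of 9 CG dinucleotides against 7 over all 32851 windows. For members at 10 FPKM or more the median was 7, over 10 windows from 7 of the 9 genes, as Kcnu1 and Cacna1h had none. It was 11 from 1 to under 10 FPKM, 7.5 from 0.1 to under 1, and 9 under 0.1. The full cyclic AMP response element TGACGTCA, a site used by the spermatid factor CREM, was in 0 of the 134 windows and in 1.79% of all. The letters TATAAA were in 7 member windows, or 5.22%, against 13.6% of all, and Kcnj9 was one of the 7. The letters GTTGCC, part of the box bound by RFX factors, were in 18, or 13.4%, against 12.5%, among them Kcnj9 and Kcnj3. Windows of the same gene can overlap, as in Kcnc2, so the same site can count more than once. All motifs were searched on both strands, none contains another, and they were chosen with the levels known. A match describes letters and not binding.

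Among 43 other channel genes outside the rule, chosen by function, 38 were tested. Cuffdiff's test called 1 of them as higher and 0 as lower in the authors' deposited table. The background was 0.458% of all tested genes as higher and 0.703% as lower. With 1 gene called, this is no result about the list. Stac2, an adaptor that binds voltage-gated calcium channels and slows their inactivation, rose to 4.54 FPKM in Ptbp1_cKO, against 2.71 FPKM in control (log2 fold change 0.74, implied standard error 0.25, p = 5e-05, q = 0.00848 in the authors' deposited table). The normal p from its statistic, 0.00308, did not pass after Benjamini-Hochberg adjustment over all genes (0.99995). As given above, the normal p ran high over the whole table, so this says little about Stac2. Stac2 (chromosome 11, 98036623 to 98053462, mm10) lies 13588 bases from Cacnb1 (98001508 to 98023034) on the same strand. Unc80, part of the sodium leak channel, stood at 1.96 FPKM in Ptbp1_cKO and 1.11 FPKM in control (p = 0.0041, q = 0.156 in the authors' deposited table). The 11 genes of CatSper, the sperm calcium channel, had 9 with a lower FPKM in Ptbp1_cKO, 0 past the threshold and a median log2(FPKM + 1) difference of -0.13. Over all tested genes 50.9% had a higher FPKM in Ptbp1_cKO, and the direction of the CatSper genes was not tested against that share. The most abundant, Catsperz, stood at 534.1 FPKM in Ptbp1_cKO and 584.4 FPKM in control.

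Depth, annotation and tissue markers bear on these values as follows. The smallest FPKM values moved in steps that match single fragments, which gives the libraries a depth, in units of 1e6 fragments on Cuffdiff's scale, of 65.1 to 72.0 in Ptbp1_cKO and 66.3 to 86.9 in control, provided that the 3 libraries of a group were averaged with equal weight. A gene at 1 FPKM then rested on about 204 fragments per kilobase in Ptbp1_cKO and 226 in control, which covers counting error only. The 47 members not tested had at most 0.125 FPKM in a group. Of the members, 132 lay on autosomes and 2 on X. None of the 134 longest transcripts had a near-identical copy elsewhere. Exons of 37 members overlapped a gene on the opposite strand, among them Kcnmb4, which shares 355 bases with Kcnmb4os1, at 176.0 FPKM in Ptbp1_cKO and 170.2 FPKM in control, and 693 bases with Kcnmb4os2, at 11.2 FPKM in Ptbp1_cKO and 12.1 FPKM in control. The kit keeps strand, but whether counting used it is not given in the sources used here. Kcnk4 shares 587 exonic bases on its own strand with Catsperz, so its value, at 0.420 FPKM in Ptbp1_cKO and 0.360 FPKM in control, is uncertain. Ptbp1 itself stood at 46.66 FPKM in Ptbp1_cKO and 49.97 FPKM in control (q = 0.999 in the authors' deposited table), and whole-testis RNA at gene level does not check the deletion.

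Some cell type markers differed between the groups. The deposited q was under 0.05 for 1 of 12 tested Sertoli, 1 of 6 Leydig, 2 of 7 leukocyte, 2 of 6 spermatogonial and 1 of 3 epididymis markers. All of these were higher in Ptbp1_cKO in the authors' deposited table, and no marker of the other lists passed. Over all tested genes 1.16% passed, 0.458% as higher, and 50.9% had a higher FPKM in Ptbp1_cKO. The lists were not tested against these shares. Ptbp1_cKO had the higher FPKM for 11 of 12 Sertoli markers (summed FPKM 1649 in Ptbp1_cKO and 1293 in control), 7 of 7 leukocyte markers (48.0 and 34.5 in that order), 5 of 6 myoid markers (213.1 and 188.3) and 6 of 6 endothelial markers (9.72 and 8.30). Clu made up most of the Sertoli sum, at 1199 FPKM in Ptbp1_cKO and 853.6 FPKM in control, and the other 11 Sertoli markers summed to 450.1 FPKM in Ptbp1_cKO and 439.5 FPKM in control. The FPKM was also higher there for 3 of 6 Leydig markers (1368 in Ptbp1_cKO and 1103 in control) and for 5 of 6 spermatogonial markers (85.5 and 70.5). Insl3 alone stood at 1049 FPKM in Ptbp1_cKO and 749.6 FPKM in control, and the other 5 Leydig markers summed to 319.6 FPKM in Ptbp1_cKO and 353.0 FPKM in control. Uchl1 made up most of the spermatogonial sum and of its difference, at 54.7 FPKM in Ptbp1_cKO and 40.3 FPKM in control. In Ptbp1_cKO the FPKM was lower for 5 of 6 spermatocyte markers (725.2 and 797.5) and 5 of 6 round spermatid markers (1545 and 1657), while 5 of 6 elongating spermatid markers were higher (48578 and 45951). Prm1 alone, at 16362 FPKM in Ptbp1_cKO and 13135 FPKM in control, differed by more than the elongating sum did. Without Prm1 that sum was lower in Ptbp1_cKO. For nerve and glia, where Cacna1b is best known, 2 of 7 markers were higher and the sums were 6.49 FPKM in Ptbp1_cKO and 6.52 FPKM in control. Epididymis markers summed to 6.55 FPKM in Ptbp1_cKO and 0.356 FPKM in control, with 4 of 6 higher, Crisp1 making up most of the sum and Lcn8 at 0 in both groups. The part of these shifts in the channel values was not tested.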

How the data were processed

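Polyadenylated RNA from whole testes was made into stranded TruSeq libraries, per the labels' protocols. Build mm10 and the tools STAR 2.6.1d, Trimmomatic 0.38, bcl2fastq 2.20, Cufflinks and Cuffdiff appear in the submitters' processing notes without settings. Neither Cuffdiff's version nor its gene annotation is given in the sources used here. The authors deposited 1 Cuffdiff gene table with an FPKM per group, a log2 fold change (Ptbp1_cKO over control), the signed score of the test and its p-value and q-value. Groups were taken from the library titles.

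Calls were taken as deposited at q under 0.05. Differences of log2(FPKM + 1) were taken over genes with at least 0.1 FPKM in a group, a scale that understates changes of low genes. The implied standard error is the deposited log2 fold change divided by the statistic. The normal p and Benjamini-Hochberg adjustment were computed with scipy 1.17.1 and numpy 2.4.6 and tested on simulated data, as was the reading of fragment steps, made on genes annotated with 1 unspliced transcript, 1500 to 6000 bases long; all 272 values in Ptbp1_cKO and 250 in control small enough to be a single fragment lay within 0.4% of a step. Positions are from GENCODE M21 on mm10; 124 members matched with their identifier's version and 10 without it. Copies were sought with BLAST 2.17.0 at 95% identity over 80% of the transcript.

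Named members were those with an unadjusted p under 0.05, the 15 most abundant, the most abundant and most changed of each family, and members known from sperm; others were named for their complex after their values were seen. Members, lists and motifs were chosen with earlier results of these data known. P-values measure only the spread that Cuffdiff modelled between these libraries. Results of 3 members are not reported here singly; they stay in the counts, sums and medians.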

Additional observations from a re-analysis of the deposited data

How the results depend on the processing

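At a deposited q under 0.10 there were again 0 higher and 0 lower channel genes, which fixes the same counts at stricter q. Adjustment over genes of at least 1 FPKM in a group also gave 0 and 0, with a smallest adjusted p of 0.229 among the members. The normal p from the statistic, unadjusted, gave 0 and 0 as well, an alternative chosen after seeing the data, which fixes the counts of the adjusted one. That p ran high over the whole table, where 1.34% of tested genes with a statistic were under 0.05. The unadjusted deposited p under 0.05 gave 5 higher and 2 lower. The members' median difference lay between 0.0027 and 0.04 over pseudocounts of 1, 0.1 and none and filters of 0.1, 1 and no FPKM. Family medians depended on these choices and lay between -0.11 and 0.32 over 35 alternatives. The upper end was the proton channel family, which is Hvcn1 alone, with no pseudocount. The lower end was a median of only 2 inward rectifiers. With at least 1 FPKM in a group, the median was 0.14 for Kv alpha, 0.17 for calcium channel pores and -0.11 for inward rectifiers, which changed sign. With no filter, auxiliary calcium channel subunits changed sign too (-0.00024). No paired analysis was possible because the deposited table holds group values only, and no replicate could be left out. For the 47 members that were not tested the table gives no error.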
